A study of Oryctolagus cuniculus with 9 samples.

Results

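The genes described here are growth brakes of the p53 and stress responses, in 5 small groups: the antiproliferative genes BTG1 and BTG2, the cyclin-dependent kinase (CDK) inhibitor gene CDKN1A, the G-type cyclins CCNG1 and CCNG2, the stress-responsive polo-like kinases PLK2 and PLK3, and the stress genes GADD45A, GADD45B and GADD45G. They were chosen by symbol, with earlier results of these data known. Of the 10 genes named, 8 were in the table of 19291 genes and all 8 had enough counts to be tested, as had 12324 genes in total. CCNG1 and GADD45B were not listed by symbol and were not analysed here.

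p53 is a transcription factor that is stabilised when DNA is damaged, and it switches on genes that hold the cell cycle or start cell death. CDKN1A, whose product p21 binds and blocks cyclin-CDK complexes, is its best known arrest target, and BTG2, CCNG1, GADD45A, PLK2 and PLK3 are also known as p53-responsive. CCNG2, GADD45B and GADD45G are mostly described as regulated without p53. BTG2, PLK2, PLK3 and the GADD45 genes can be induced quickly by growth factors or stress, and CCNG2 is raised by FOXO factors when growth factor signalling is low. These roles are known from human and mouse cells. In smooth muscle, p21 is known as a restraint on proliferation after injury.

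mRNA was sequenced from 9 libraries of the cell line HA-VSMC, which the labels assign to the rabbit. The groups were 3 control libraries, 3 libraries of cells given β-estradiol at 50 nM and 3 at 250 nM. The culture medium was RPMI plus fetal bovine serum in all groups, and estradiol, the main ovarian estrogen, was dissolved in DMSO and left on the cells for 48 h. The labels name 250 nM as the final concentration in the treatment protocol, tag the controls with the treatment estrogen and the concentration WT, and do not say whether the controls received DMSO. All 9 libraries come from 1 cell line, and no label states that replicates came from separate cultures. The p-values therefore reflect only how much these libraries vary, which may be technical. The species of the cells was not checked against reads.

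Totals were 54718407 to 72274464 estimated counts per library. The line's identity was compared with marker genes. Of 10 smooth muscle markers 8 were in the table, with a summed level of 5807 to 6046 CPM (counts scaled to library size, with TMM factors) in controls, 5954 to 6302 CPM at 50 nM and 5922 to 6132 CPM at 250 nM. ACTA2 made up 2807 to 3139 CPM of this, and most of the rest was CALD1 (1651 to 1930 CPM) and TPM2 (941 to 1039 CPM). MYH11 was at 26.0 to 40.0 CPM, LMOD1 at only 1.74 to 2.66 CPM and MYOCD at 1.07 to 2.30 CPM. The muscle intermediate filament gene DES was at 0 in every library. The markers of endothelial cells (6 of 6 in the table, KDR at 0), epithelial cells (4 of 6, EPCAM at 0) and leukocytes (4 of 6) summed to at most 1.30, 0.204 and 0.657 CPM in any library. The 6 fibroblast markers summed to 7257 to 7535 CPM in controls, 8117 to 8648 CPM at 50 nM and 8272 to 8647 CPM at 250 nM, most of it COL1A1, a collagen gene. That sum was higher with estradiol, and its part in the results below was not tested. Among the 6 fibroblast markers only COL1A1 passed the edgeR test used below, at 50 nM (adjusted p = 0.0260) and 250 nM (0.0401). Its mean was 7067 CPM in controls, 8012 CPM at 50 nM and 8206 CPM at 250 nM, and the other fibroblast markers did not pass. In such bulk samples, fewer cells expressing a gene and less of its RNA per cell cannot be told apart.

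At 50 nM, 6 of the 8 growth brake genes differed from the control (edgeR quasi-likelihood test, Benjamini-Hochberg adjusted p under 0.05 over all genes tested), against 3.25% of all genes. The members were chosen with earlier results known, so such shares are no independent support. BTG2, CCNG2, CDKN1A and PLK2 fell, and PLK3 and GADD45G rose. BTG1 and GADD45A did not pass. At 250 nM, PLK3 was again higher than the control and CCNG2 again lower, which makes 2 of 8, against 0.308% of all genes (0.203% higher and 0.105% lower). BTG2 and GADD45G were the members that differed between 250 nM and 50 nM, where 0.325% of all genes passed: BTG2 was higher at 250 nM (0.187% of all genes) and GADD45G lower (0.138%). Both comparisons with the control use the same 3 control libraries, so their values are not independent of each other. Likewise the comparison of 250 nM with 50 nM uses the 50 nM libraries of the first comparison, so a low group at 50 nM gives a fall in one and a higher value at 250 nM in the other.

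By direction, 4 members were lower at 50 nM (1.7% of all genes) and 2 were higher (1.55%). On log2(FPKM + 1), where the median of all genes at 50 nM was -0.041, all genes split into 85 higher and 223 lower, against 191 and 210 by edgeR. The members kept their directions there. The median absolute log2 fold change of the 8 genes was 0.38 at 50 nM, 0.080 at 250 nM against control and 0.19 at 250 nM against 50 nM, beside 0.10, 0.083 and 0.069 over all genes tested. The signed median was -0.19 at 50 nM and -0.020 at 250 nM, with -0.0020 and -0.0047 over all genes. The 6 genes that passed at 50 nM were also the 6 whose control and 50 nM libraries did not overlap, a separation shown by 19% of all genes. In 4 of them the 50 nM libraries were lower (10.1% of all genes) and in 2 higher (8.88%).

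**Figure D1:**
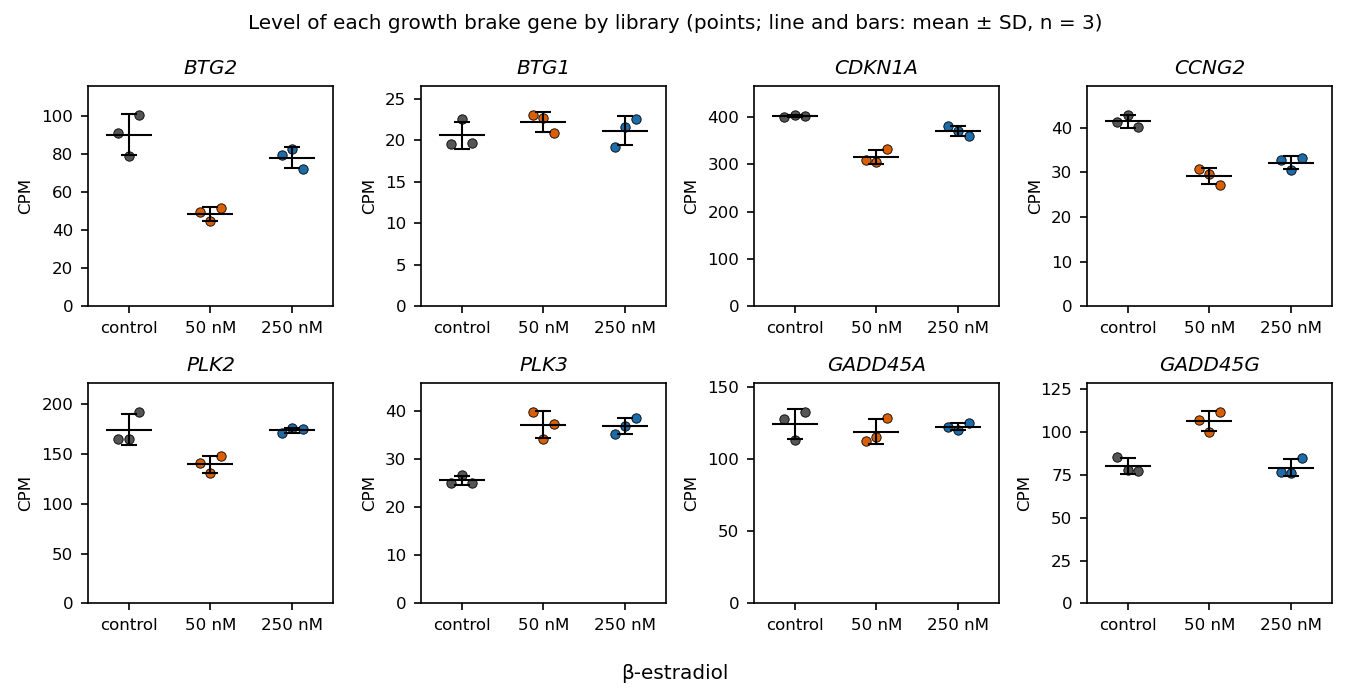
Level of each of the 8 growth brake genes, in CPM on a linear axis from 0, in control, 50 nM and 250 nM libraries. Points are libraries, and lines and bars are the mean ± SD of 3. BTG2, CDKN1A and PLK2 are lowest at 50 nM, GADD45G is highest at 50 nM, and CCNG2 and PLK3 are shifted at both concentrations.

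BTG1 and BTG2 encode small antiproliferative proteins of the BTG/TOB family, which bring the CCR4-NOT complex to mRNAs and so speed the removal of their poly(A) tails. BTG2 had the largest log2 fold change at 50 nM among the 8 genes. Its levels were 91.2, 78.9 and 100.6 CPM in controls, 49.6, 44.7 and 51.4 CPM at 50 nM, and 79.4, 82.6 and 72.1 CPM at 250 nM. All 3 libraries at 50 nM lay below every other library, while the 250 nM libraries overlapped the controls. At 50 nM BTG2 was 1.86-fold lower than in the control (log2 fold change -0.89 ± 0.086 (SE), 95% interval -1.08 to -0.71, edgeR adjusted p = 2.40e-05). It was the gene of 16th lowest p among 12324.

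BTG2 was higher at 250 nM than at 50 nM by 0.68 ± 0.086 on the log2 scale, a 1.61-fold difference (edgeR adjusted p = 0.00105), with no overlap between the groups. Against the control, the value at 250 nM was -0.21 ± 0.085 (95% interval -0.39 to -0.028) and did not pass (edgeR adjusted p = 0.472). BTG1, the closest relative, had levels of 19.6, 22.5 and 19.6 CPM in controls, 23.1, 22.7 and 20.8 CPM at 50 nM, and 19.2, 21.6 and 22.6 CPM at 250 nM. These groups overlapped throughout. The BTG1 difference was 0.11 ± 0.085 at 50 nM (95% interval -0.074 to 0.29, edgeR adjusted p = 0.623) and 0.040 ± 0.085 at 250 nM (95% interval -0.14 to 0.22, edgeR adjusted p = 0.96).

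CDKN1A encodes p21. In controls its replicates were close together, with 398.8, 404.0 and 402.0 CPM. It had 308.3, 303.9 and 331.0 CPM at 50 nM and 381.0, 369.3 and 358.4 CPM at 250 nM. The 3 groups did not overlap: controls were highest, 250 nM libraries next and 50 nM libraries lowest. At 50 nM it fell by 0.35 ± 0.052 on the log2 scale, or 1.28-fold (edgeR adjusted p = 0.00111). At 250 nM the value against control was -0.12 ± 0.052 (95% interval -0.23 to -0.0098) and did not pass (edgeR adjusted p = 0.52), although the libraries did not overlap. CDKN1A, CCNG2 and PLK3 were the 3 members without overlap at 250 nM, as were 15.5% of all genes (7.75% higher, 7.76% lower). The difference between 250 nM and 50 nM was 0.23 ± 0.052 (edgeR adjusted p = 0.0938). It passed without 50 nM replicate 3 (0.27, edgeR adjusted p = 0.0318) and by DESeq2 (adjusted p = 0.00171).

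CCNG2 encodes an unconventional cyclin that does not drive the cell cycle but binds protein phosphatase 2A and is associated with arrest. It was lower with estradiol at both concentrations. Its levels were 41.3, 42.9 and 40.1 CPM in controls, 30.8, 29.7 and 27.1 CPM at 50 nM, and 32.8, 30.6 and 33.3 CPM at 250 nM. Every estradiol library lay below every control, and the estradiol groups overlapped each other by a small margin. The log2 fold change was -0.51 ± 0.070 at 50 nM (1.42-fold lower, edgeR adjusted p = 0.00066) and -0.36 ± 0.069 at 250 nM (1.29-fold lower, edgeR adjusted p = 0.0388). Between the concentrations the difference was 0.14 ± 0.070 (95% interval -0.0064 to 0.29, edgeR adjusted p = 0.913).

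The call for CCNG2 at 250 nM was not firm. It was lost without any 1 of the 3 controls (edgeR adjusted p of 0.103, 0.136 and 0.0997 without replicates 1, 2 and 3), without any 1 of the 250 nM libraries (0.114, 0.236 and 0.139) and without 50 nM replicate 1 (0.0542). The value stayed between -0.39 and -0.33 in these fits. At 50 nM the call for CCNG2 held in every alternative that was run, with adjusted p of at most 0.00746.

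**Figure D2:**
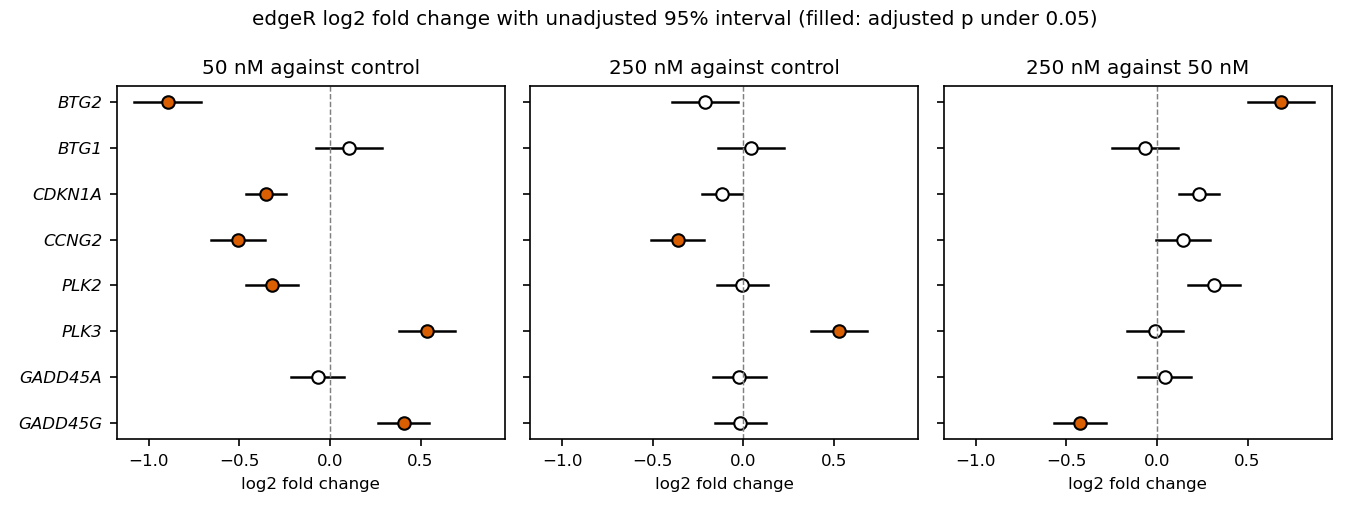
edgeR log2 fold change (x axis) of each growth brake gene with its unadjusted 95% interval, for 50 nM against control, 250 nM against control and 250 nM against 50 nM. Filled points have an adjusted p under 0.05 over all genes: 6, 2 and 2 of the 8 genes. PLK3 has nearly the same value at both concentrations, 0.54 and 0.53, whereas BTG2 has -0.89 and -0.21.

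PLK2 and PLK3 encode polo-like kinases that are induced by serum and stress, unlike the mitotic kinase PLK1. They moved in opposite directions at 50 nM. PLK3 had 25.1, 26.7 and 25.1 CPM in controls, 39.9, 34.3 and 37.4 CPM at 50 nM, and 35.2, 37.0 and 38.7 CPM at 250 nM. Every estradiol library was above every control, and the 2 estradiol groups overlapped. The rise was 1.45-fold at 50 nM (log2 fold change 0.54 ± 0.073, edgeR adjusted p = 0.000628) and 1.44-fold at 250 nM (0.53 ± 0.073, edgeR adjusted p = 0.00483). The difference between the concentrations was -0.0089 ± 0.072, with a 95% interval of -0.16 to 0.14. Without 250 nM replicate 3 the rise of PLK3 at 250 nM was 0.49 and missed the threshold (edgeR adjusted p = 0.0534).

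PLK2 had 165.2, 165.1 and 192.0 CPM in controls, 140.4, 130.2 and 147.5 CPM at 50 nM, and 170.9, 175.3 and 174.3 CPM at 250 nM. The 50 nM libraries were the 3 lowest, and the 250 nM libraries lay within the range of the controls. PLK2 was 1.25-fold lower at 50 nM than in the control (log2 fold change -0.32 ± 0.067, edgeR adjusted p = 0.0152), and at 250 nM the value was -0.0051 ± 0.067 (95% interval -0.15 to 0.14). The fall at 50 nM missed the threshold without control replicate 3 (-0.25, edgeR adjusted p = 0.0911), without 50 nM replicate 1 (-0.33, 0.0597) or 2 (-0.27, 0.0721), and in a fit of these 2 groups only (-0.32, 0.0512). Between 250 nM and 50 nM the difference of 0.32 ± 0.067 had an edgeR adjusted p of 0.0712. The libraries of these groups did not overlap for 4 members, higher at 250 nM for BTG2, CDKN1A and PLK2 and lower for GADD45G, as was the case for 11.5% of all genes (5.94% higher, 5.57% lower). The PLK2 difference passed by DESeq2 (adjusted p = 0.00177), and by edgeR with no filter (adjusted p = 0.0217), with the 2 groups alone (0.0289), without control replicate 2 (0.0479) or 3 (0.0368) and without 50 nM replicate 3 (0.0372).

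GADD45A and GADD45G encode small stress proteins that bind CDK1 and the kinase MAP3K4, upstream of p38 and JNK. GADD45G was highest at 50 nM. Its levels were 85.4, 78.0 and 76.9 CPM in controls, 107.2, 99.9 and 111.8 CPM at 50 nM, and 76.4, 76.3 and 84.8 CPM at 250 nM. The 50 nM libraries were the 3 highest and the other groups overlapped. GADD45G was 1.33-fold higher at 50 nM than in the control (log2 fold change 0.41 ± 0.067, edgeR adjusted p = 0.0029). It was lower at 250 nM than at 50 nM by -0.42 ± 0.067 on the log2 scale (edgeR adjusted p = 0.00694), and against the control the value at 250 nM was -0.017 ± 0.067 (95% interval -0.16 to 0.13). The difference between the concentrations missed the threshold without 250 nM replicate 1 (-0.40, edgeR adjusted p = 0.0732) or 2 (-0.40, 0.0742).

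GADD45A had 127.5, 112.9 and 132.7 CPM in controls, 112.2, 115.5 and 128.6 CPM at 50 nM, and 122.1, 119.9 and 125.2 CPM at 250 nM. All 3 groups overlapped. Its values against control were -0.067 ± 0.069 at 50 nM (95% interval -0.21 to 0.079, edgeR adjusted p = 0.731) and -0.023 ± 0.069 at 250 nM (95% interval -0.17 to 0.12, edgeR adjusted p = 0.973).

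In 3 families a pair of paralogs was measured, and their levels were compared within the same library. This difference in log2 CPM hardly depends on the scaling between libraries. It is not per length, however: in the FPKM values described below, BTG1 was above BTG2 in controls (39.1 against 24.0). The groups were compared with an exact two-sided permutation test of an F ratio over the 1680 ways to label 9 libraries, with p-values adjusted over the 3 pairs. The pairs were chosen with the fold changes of these libraries known and largely restate them, so these p-values are no independent support. The other pairs, CCNG2 with CCNG1 and GADD45B with GADD45A, could not be formed from these symbols.

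In CPM, BTG2 exceeded BTG1 by 2.21, 1.81 and 2.36 log2 units in the control libraries, by 1.102, 0.978 and 1.302 at 50 nM, and by 2.04, 1.93 and 1.67 at 250 nM. The gap was thus smaller in every 50 nM library than in any other (exact permutation p = 0.0107, adjusted p = 0.0161). PLK3 was below PLK2 in all libraries. The difference was -2.71, -2.63 and -2.93 in controls, -1.81, -1.92 and -1.98 at 50 nM, and -2.28, -2.24 and -2.17 at 250 nM, with no overlap between any of the groups. Its exact permutation p of 0.00357 (adjusted p = 0.0107) is the smallest that these 9 libraries can give.

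GADD45G was below GADD45A as well, by a difference of -0.58, -0.53 and -0.79 in controls, -0.066, -0.21 and -0.20 at 50 nM, and -0.68, -0.65 and -0.56 at 250 nM. The 50 nM libraries were again apart from the rest (exact permutation p = 0.0357, adjusted p = 0.0357), and the controls overlapped the 250 nM libraries. Taking 2 groups at a time, 3 libraries against 3 cannot give an exact p below 0.1, so no pairwise test of these differences could pass. The mean differences between 50 nM and control were -0.998 for BTG2 minus BTG1, 0.85 for PLK3 minus PLK2 and 0.47 for GADD45G minus GADD45A.

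**Figure D3:**
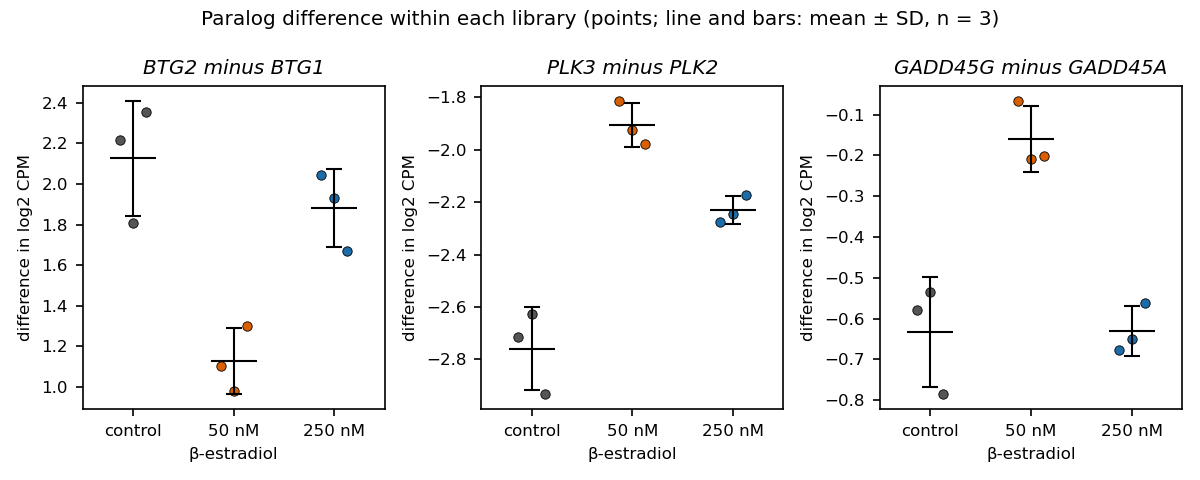
Difference in log2 CPM between paralogs within each library (y axes, separate scales that do not start at 0) in control, 50 nM and 250 nM libraries, for BTG2 minus BTG1, PLK3 minus PLK2 and GADD45G minus GADD45A. Points are libraries, and lines and bars are the mean ± SD of 3. In each pair the 50 nM libraries lie apart from the controls, and the 250 nM libraries overlap the controls for BTG and GADD45 but not for PLK.

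Levels can be compared between genes only per length, for which the deposited FPKM values (fragments per kilobase of gene model, scaled to library size) were used. CDKN1A was by far the highest, with 786 ± 3.77 FPKM in controls (SD, n = 3), above 99.3% of the genes tested. GADD45A followed with 69.5 ± 6.28 FPKM, PLK2 with 48.1 ± 4.49, BTG1 with 39.1 ± 2.81, BTG2 with 24.0 ± 3.07, GADD45G with 20.5 ± 1.29, CCNG2 with 15.1 ± 0.41 and PLK3 with 13.1 ± 0.34 FPKM. Neighbours in this order did not overlap between control libraries, except BTG2 and GADD45G.

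At 50 nM the lower part of the FPKM order changed. GADD45G had 26.2 ± 1.79 FPKM there and PLK3 18.3 ± 1.54, followed by BTG2 with 12.4 ± 1.04 and CCNG2 with 10.3 ± 0.602. BTG2 was thus the 7th of 8 genes at 50 nM and the 5th in controls. Further up, BTG1 with 40.7 ± 1.93 FPKM and PLK2 with 37.2 ± 2.74 overlapped at 50 nM, and they were the only neighbours that did. At 250 nM the order was that of the controls apart from PLK3, at 18.4 ± 0.778 FPKM, now above CCNG2 at 11.4 ± 0.569. There BTG2 overlapped GADD45G, and GADD45G overlapped PLK3. Comparing FPKM between genes rests on the gene models behind the table. The ratio of CPM to FPKM implied models of 0.522 kb for CDKN1A and 0.538 kb for BTG1, but of 3.85 kb for BTG2 and 3.99 kb for GADD45G. A short model raises FPKM, so the place of these genes in the order depends on annotation. Comparisons of 1 gene between groups do not.

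The 8 genes together took 931 to 989 CPM in controls, 781 to 856 CPM at 50 nM and 909 to 917 CPM at 250 nM. CDKN1A alone was 40.6% to 43.4% of that sum in controls, 38.0% to 38.9% at 50 nM and 39.4% to 41.5% at 250 nM. These are shares of CPM, which is not per length, so they do not compare levels between genes. The other 7 summed to 527 to 587 CPM in controls, 477 to 525 CPM at 50 nM and 536 to 551 CPM at 250 nM.

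**Figure D4:**
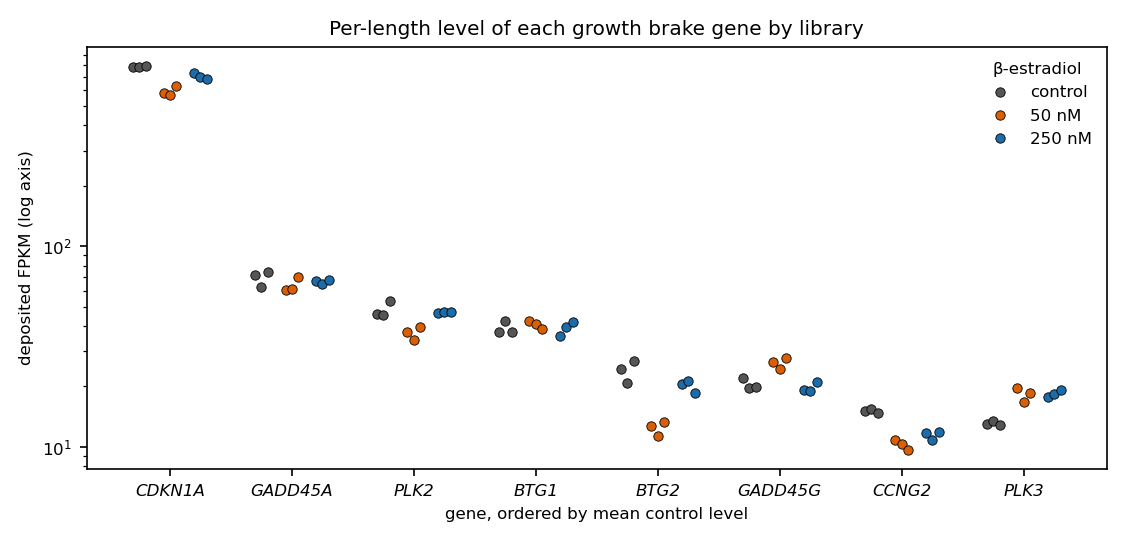
Deposited FPKM (log axis) of each growth brake gene in every library, with genes ordered by their mean control level and groups in the order control, 50 nM, 250 nM. CDKN1A lies at 566 to 790 FPKM, and every other gene is below 75. BTG2 and CCNG2 are the lowest pair at 50 nM.

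The genes around these brakes were read from lists. Beside their unadjusted counts stand 15.6% of all genes with an unadjusted p under 0.05 at 50 nM, 8.67% at 250 nM and 5.68% between the concentrations. Of 34 other p53 target genes 21 were tested. At 50 nM 0 rose and 2 fell by edgeR (1.55% and 1.7% of all genes), with a median log2 fold change of -0.11. An unadjusted p under 0.05 was seen for 10, 3 higher and 7 lower. The 2 that fell by edgeR were TP53INP1, which promotes p53 activity (-0.26 ± 0.061, edgeR adjusted p = 0.0268), and KITLG, the KIT ligand gene (-0.27 ± 0.064, edgeR adjusted p = 0.0316), both chosen after their values were seen. DESeq2 called 3, these and SESN2. Neither was firm: TP53INP1 missed the threshold without any 1 control or without 50 nM replicate 1 or 3, and KITLG without control replicate 2 or 3, any 1 of the 50 nM libraries or 250 nM replicate 3. At 250 nM 0 passed by edgeR, while 5 had an unadjusted p under 0.05, 1 higher and 4 lower. DESeq2 called 2 at 250 nM, in opposite directions by edgeR: SESN2 was lower (-0.29 ± 0.077) and FAS higher (0.28 ± 0.073). The median there was -0.075. Between the concentrations 0 passed by edgeR or DESeq2, and 1 had an unadjusted p under 0.05.

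Of 8 other CDK inhibitors and CDK-blocking kinases, 0 passed by edgeR at 50 nM or 250 nM (3.25% and 0.308% of all genes). At each concentration 2 had an unadjusted p under 0.05. DESeq2 called 1 at 50 nM, CDKN1B, the p27 gene, and 0 at 250 nM. CDKN1B, chosen after its values were seen, was 39.7 ± 1.05 CPM at 50 nM against 46.7 ± 1.64 CPM in controls (log2 fold change -0.23 ± 0.061, edgeR adjusted p = 0.0534). Of 2 other polo-like kinases, PLK1 and PLK4, 0 passed by edgeR or DESeq2 at either concentration, and 1 at each had an unadjusted p under 0.05. At 50 nM 1 of them was called without 50 nM replicate 3.

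FOXO factors are known inputs of CCNG2. In the list of these factors and other FOXO targets, 2 of 14 genes were lower and 0 higher at 50 nM (1.7% and 1.55% of all genes), with a median of -0.075. An unadjusted p under 0.05 was seen for 6 of the 14, 1 higher and 5 lower. SESN3, a stress-induced inhibitor of mTORC1 signalling, changed by -0.58 ± 0.11 (edgeR adjusted p = 0.00936) and was lost without 50 nM replicate 2 (edgeR adjusted p = 0.0529). PIK3IP1, an inhibitor of PI3 kinase, changed by -0.35 ± 0.068 (edgeR adjusted p = 0.0101) and was lost without 50 nM replicate 1 (edgeR adjusted p = 0.0502). DESeq2 called 5 of the 14 at 50 nM, where it called 702 genes in all. By edgeR values TXNIP was on the higher side, and FOXO3, PIK3IP1, SESN3 and CDKN1B were on the lower side. CDKN1B was already counted with the CDK inhibitors. At 250 nM 0 passed by edgeR, with 3 at an unadjusted p under 0.05, and DESeq2 called PIK3IP1.

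The binding partners of the brakes stand beside 1.7% of all genes called lower and 1.55% called higher at 50 nM. Counts of 1 gene are too small to set against these shares. Of 12 genes of the BTG/TOB family and the CCR4-NOT complex, 1 fell at 50 nM, the ubiquitin ligase gene CNOT4 (-0.35 ± 0.091, edgeR adjusted p = 0.0489). Of 10 GADD45 kinase partners, 1 fell, MAP2K4, a kinase that activates JNK (-0.26 ± 0.066, edgeR adjusted p = 0.0471). Both were chosen after their values were seen, and both lost the call when any of several libraries was left out, 8 of 9 in each case. DESeq2 called CNOT4 in the first list and, in the second, MAP2K4 and MAP2K3. MAP2K3, chosen after its values were seen, was on the higher side (0.18 ± 0.056, edgeR adjusted p = 0.105). At an unadjusted p under 0.05 these lists had 2 and 3 genes at 50 nM. Of 10 cyclin G partners, mostly subunits of protein phosphatase 2A, 0 passed by edgeR or DESeq2 and 0 had an unadjusted p under 0.05. At 250 nM 0 genes of these 3 lists passed by edgeR or DESeq2, with 3, 1 and 0 at an unadjusted p under 0.05.

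Of 24 cyclins, CDKs and their substrates, only CCNF fell at 50 nM and 0 rose, beside 1.7% of all genes lower and 1.55% higher. CCNF, a substrate-binding subunit of an SCF ubiquitin ligase that was chosen after its values were seen, was 14.4 ± 2.51 CPM at 50 nM against 20.2 ± 1.24 CPM in controls (-0.49 ± 0.11, edgeR adjusted p = 0.0249). It missed the threshold without control replicate 1 or 3 and without 50 nM replicate 1 or 2, and without 50 nM replicate 3 the count was 4 of 24. The median of this list was -0.13 at 50 nM and -0.12 at 250 nM, with 8 and 4 genes lower and 0 higher at an unadjusted p under 0.05. At 250 nM 0 passed by edgeR or DESeq2. Between 250 nM and 50 nM, 0 genes passed by edgeR in the 8 lists described so far, and DESeq2 called 1, TXNIP of the FOXO list.

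**Figure D5:**
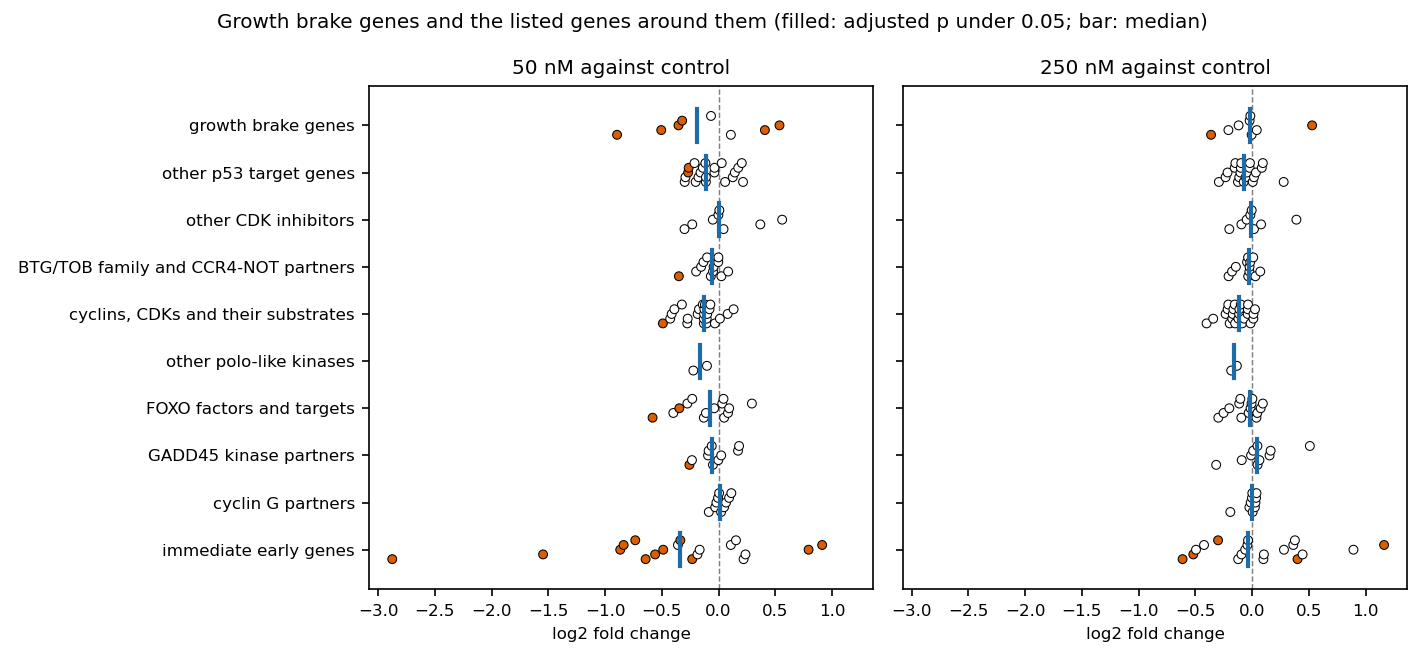
edgeR log2 fold change (x axis) of each gene in the growth brake group and in 9 lists of related genes (rows), for 50 nM against control and 250 nM against control. Filled points have an adjusted p under 0.05 over all genes, and blue bars are medians. The p53 and FOXO lists have 2 called genes each at 50 nM, and the other lists at most 1, apart from the immediate early genes. All of these are lower, and at 250 nM these lists have 0. The immediate early genes have 12 of 19 at 50 nM and 5 of 19 at 250 nM.

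The immediate early genes, which serum and growth factors induce within minutes, had more calls. This list too was chosen with earlier results of these data known. Of all genes, 3.25% passed at 50 nM, 0.308% at 250 nM against control and 0.325% between the concentrations. Of 19 tested, 10 fell and 2 rose at 50 nM (median -0.34), 3 fell and 2 rose at 250 nM against control (median -0.037), and 9 were higher and 1 lower at 250 nM than at 50 nM (median 0.34). The 5 of lowest p over the 3 groups were EGR1, FOS, DUSP1, CYR61 and IER3, and all 5 fell at 50 nM and were higher at 250 nM than at 50 nM. KLF10, named after its values were seen, had the same adjusted p over the 3 groups as IER3 and the opposite directions: it rose at 50 nM by 0.79 ± 0.068 (edgeR adjusted p = 6.56e-06) and was lower at 250 nM than at 50 nM by -0.39 ± 0.068 (edgeR adjusted p = 0.0134). The KLF10 difference between the concentrations missed the threshold without 50 nM replicate 1 or 2 or 250 nM replicate 1 or 2. The count at 250 nM against control was 1 of 19 without control replicate 1 or 3 or 250 nM replicate 2 or 3. Between the concentrations it was 6 of 19 without 250 nM replicate 1 and 5 of 19 without 250 nM replicate 2, and DUSP1 missed the threshold there without either of these or without 50 nM replicate 2.

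The genes with the most similar profile were found for each of the 6 members that passed the test for any difference between the 3 groups (1.86% of all genes). Likeness was the root mean square difference of centred log2 CPM over the 9 libraries, among 7594 other genes with a symbol and a mean of at least 5 CPM. It is a description, since all profiles share the same libraries. Nearest to BTG2 were DUSP6, CYR61 and AHDC1, at 0.12, 0.13 and 0.15 log2 units, against an SD of 0.42 for BTG2 itself. DUSP6, a phosphatase of ERK, had -0.84 ± 0.096 at 50 nM and -0.037 ± 0.094 at 250 nM.

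Nearest to PLK3 were TSC22D2, ENC1 and SAMSN1, at 0.064, 0.096 and 0.099 log2 units, with an SD of 0.27 for PLK3. TSC22D2 rose by 0.54 ± 0.067 at 50 nM and by 0.42 ± 0.067 at 250 nM (edgeR adjusted p = 0.000325 and 0.0128). Nearest to CCNG2 were C9orf72, CALHM2 and NUFIP2, at 0.061, 0.062 and 0.073, with an SD of 0.23. CALHM2 changed by -0.49 ± 0.072 at 50 nM and by -0.36 ± 0.071 at 250 nM (edgeR adjusted p = 0.00117 and 0.0471). C9orf72 and NUFIP2 passed at 50 nM (edgeR adjusted p = 0.0219 and 0.0178) but not at 250 nM (0.35 and 0.147).

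Nearest to CDKN1A were HELB, XPO1 and SOSTDC1, at 0.040, 0.043 and 0.047, with an SD of 0.16. XPO1, the nuclear export receptor, changed by -0.38 ± 0.052 at 50 nM (edgeR adjusted p = 0.000633). Nearest to PLK2 were YPEL2, PMS1 and COA7, at 0.056, 0.067 and 0.070, with an SD of 0.18. Nearest to GADD45G were ID3, NUAK2 and BDKRB2, at 0.090, 0.091 and 0.094, with an SD of 0.22. ID3, the nearest of them, rose by 0.26 ± 0.067 at 50 nM and barely passed (edgeR adjusted p = 0.0499). Its difference between 250 nM and 50 nM, -0.30 ± 0.067, did not pass (edgeR adjusted p = 0.106). NUAK2, a kinase related to AMPK, rose by 0.41 ± 0.064 at 50 nM (edgeR adjusted p = 0.00186). It was lower at 250 nM than at 50 nM by -0.58 ± 0.064 (edgeR adjusted p = 0.000366). No member was among the 3 nearest genes of another.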

How the data were processed

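For each of the 9 libraries the authors deposited FPKM values and estimated counts per gene. Trim Galore, TopHat2 2.1.1, Cufflinks and Cuffdiff are named in the submitters' processing notes. Which step produced the counts is not stated, and neither genome build nor annotation is given in the sources used here. In the deposited table the estimated counts are whole numbers whose low values pile up at 4, 8 and 12, so about 4 units stand for 1 fragment and the totals correspond to roughly 13679602 to 18068616 fragments. Columns were matched to samples by group and number in their names. The labels name a TruSeq Small RNA kit for these mRNA libraries, and strand use is not stated.

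Genes were kept by filterByExpr (minimum count 10), scaled by TMM and tested with edgeR 4.0.16 in R 4.3.3 (quasi-likelihood, all 9 libraries in 1 fit, no covariates), with Benjamini-Hochberg adjustment over 12324 genes and a threshold of 0.05. Intervals of log2 fold changes are 95% and unadjusted. Paralog differences used log2 CPM with a prior count of 2. Libraries of the same group differed by more than sampling noise (chi-square test on counts divided by 4, with 3.08 to 11.6 per degree of freedom), so none was merged. The members and gene lists were chosen with earlier results of these data known. Named genes are all members, up to 5 genes per list of lowest p among those that passed the test for any difference, and the 3 most similar genes of each member that passed it. Genes named beyond that rule are marked as chosen with their values in view, are cell type markers, make up a whole list or are named as calls of DESeq2. Those named as DESeq2 calls were also picked by their values. Alternatives were DESeq2 1.42.0, limma-voom, limma 3.58.1 on log2(FPKM + 1) and log2(FPKM + 0.1), upper-quartile or RLE factors, no filter, a filter of at least 5 CPM in 3 libraries, counts divided by 4, the 2 groups compared alone, the replicate number as a block, and leaving out each library. The method was tested on simulated data. The result of 1 other gene list is not reported here.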

Additional observations from a re-analysis of the deposited data

How the results depend on the processing

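At 50 nM the number of growth brake genes called was 4 to 6 over 21 alternatives, against 6; BTG2, CCNG2, CDKN1A and PLK3 passed in all 21, and PLK2 and GADD45G did not. With no filter, limma on log2(FPKM + 1) lost PLK2 (adjusted p = 0.0506) and GADD45G (0.0518) at 50 nM. Both member calls at 250 nM against control were lost in the 3 FPKM fits (pseudocounts 1 and 0.1, and 1 unfiltered), with 0 members passing. CCNG2 had adjusted p of 0.0888, 0.0738 and 0.137 there and PLK3 of 0.0697, 0.0558 and 0.12. Between 250 nM and 50 nM, FPKM called 1 member with either pseudocount and 0 unfiltered, and DESeq2 called 4.

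Over all genes, the calls at 50 nM were 702 by DESeq2, 234 on unfiltered FPKM and 244 with 2 groups alone, against 401. At 250 nM they were 140 by DESeq2 and 4 in each FPKM fit, against 38. Between the concentrations they were 99 by DESeq2 and 23, 26 and 11 on log2(FPKM + 1), log2(FPKM + 0.1) and unfiltered FPKM, against 40. For any difference they were 553 by DESeq2, 353 with no filter and 151, 146 and 81 on FPKM, against 229. Leaving out each library gave 187 to 564, 5 to 56, 21 to 50 and 122 to 339 genes, and 5 to 6, 0 to 2, 1 to 4 and 5 to 6 members, in these 4 comparisons.

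Sign changes touched values near 0 that had not passed. On FPKM, BTG1 at 250 nM was -0.0011 in all 3 fits, and PLK3 between concentrations was 0.0038, 0.0041 and 0.0038. Without 1 library, BTG1 at 250 nM ranged from -0.012 to 0.11, PLK2 from -0.042 to 0.071, GADD45A from -0.088 to 0.026 and GADD45G from -0.070 to 0.032, and PLK3 between concentrations from -0.065 to 0.045. The cause of these differences was not tested.

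Same-numbered libraries did not deviate together (correlations of -0.032 to 0.036 over 9 pairs, and 3 of 9 libraries correlated best with their own number). The numbers thus showed no pairing, although so few libraries could miss a weak one. With the replicate block, edgeR called PLK2 between concentrations (adjusted p = 0.0221) and changed no other member call. With labels permuted within replicate numbers, the paralog differences of -0.998 (BTG), 0.85 (PLK) and 0.47 (GADD45) had adjusted p of 0.0833, 0.0833 and 0.111, where the smallest unadjusted p possible is 0.0278. Left-out libraries moved them between -1.16 and -0.88, 0.77 and 0.92, and 0.40 and 0.52, with adjusted p of at most 0.0357.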
